A study of Sus scrofa with 9 samples.

Results

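The genes described here are the core of the NF-kappa B pathway together with BCL2 and other genes that the pathway is known to switch on, in the liver of Wujin pigs. They were chosen by name, from a list of 38 symbols. The list holds the transcription factor subunits, their inhibitors, the kinases and adaptors that lead to them, a ligand, several receptors and 4 target genes. In the table of 25918 genes, 37 of the 38 symbols were found, and all 37 had an FPKM value (fragments per kilobase of transcript, scaled to the mapped fragments of the library, and so a level per length) above 0 in all 9 libraries. BIRC2 was not matched by its symbol and has no value here. The mean FPKM was at least 0.5 for 36 of the 37 genes, and these were tested along with every other gene above that level, 12584 in all. TRAF5, at a mean of 0.425 FPKM, was not tested.

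Liver RNA of 9 piglets of the Wujin breed was sequenced, 3 piglets per group. Piglets of the low-iron, the control and the high-iron group received feed with 0, 100 and 200 mg/kg of added iron, on a basal diet that held some iron of its own. Piglets entered the trial at 35 days of age, were prefed for 5 days and then received the test feed for 30 days. All animals were of the same breed. Each library is named here by its group and the number in its title (low-iron 2, 3 and 7, control 4, 5 and 6, high-iron 2, 7 and 8). In the 9 libraries the sum of FPKM ranged from 416922 to 456420. The hepatocyte marker ALB (albumin) lay between 46231 and 74134 FPKM, and the summed level of 8 hepatocyte symbols, most of it ALB, between 68941 and 93290 FPKM.

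NF-kappa B is a family of dimeric transcription factors that wait in the cytoplasm, bound to inhibitor proteins. Signals from the TNF receptor, Toll-like receptors or CD40 pass through adaptors and ubiquitin ligases to the IKK kinases, which mark the inhibitors for destruction and so release the dimers to the nucleus. In liver the pathway is known for its part in inflammation in macrophages and endothelium and for the survival of hepatocytes, and several of its own inhibitors are among its targets.

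The DNA element that the dimers bind, the kappa B motif, was searched on both strands in the 300 bases around the annotated start of each gene (250 before and 50 after) in the Sscrofa11.1 genome of RefSeq. A match was found for 13 of the 37 genes (35.1%), against 3344 of 20650 protein-coding genes of the table (16.2%). The 13 genes were TNFAIP3, TRAF1, ICAM1, CD14, VCAM1, TRADD, NFKBIB, RELB, NFKBIA, MYD88, NFKB2, IKBKB and CD40. In TRADD, NFKBIB, NFKB2 and IKBKB some of the matches overlap each other. BCL2, TLR4 and NFKBIE were among the 24 genes with no match in this window. A match is a run of letters and was not tested for binding. The annotated start was taken as given and was not tested as the start of transcription. A gene with no match in this window may have one elsewhere.

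The upstream bases of 3 genes are shown because the results below turn on these genes. IKBKB had no overlap between any of the 3 groups, VCAM1 was higher in every high-iron library than in every other library, and BCL2 was the gene called between the groups. Each run is the 250 bases before the annotated start, on the strand of the gene, and capitals mark the matches of the kappa B motif. The IKBKB run is chr17:11289357-11289606 (plus strand), the VCAM1 run is chr4:117511212-117511461 (minus strand) and the BCL2 run is chr1:158337153-158337402 (plus strand).
IKBKB: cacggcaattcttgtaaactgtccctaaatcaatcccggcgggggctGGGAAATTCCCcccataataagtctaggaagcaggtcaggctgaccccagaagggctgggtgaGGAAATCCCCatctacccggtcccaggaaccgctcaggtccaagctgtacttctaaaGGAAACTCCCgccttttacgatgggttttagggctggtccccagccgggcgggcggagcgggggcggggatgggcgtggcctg
VCAM1: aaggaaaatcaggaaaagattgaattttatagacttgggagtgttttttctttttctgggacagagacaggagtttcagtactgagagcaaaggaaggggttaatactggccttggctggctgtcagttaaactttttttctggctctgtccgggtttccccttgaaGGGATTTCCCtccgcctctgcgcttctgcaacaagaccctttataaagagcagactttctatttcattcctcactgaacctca
BCL2: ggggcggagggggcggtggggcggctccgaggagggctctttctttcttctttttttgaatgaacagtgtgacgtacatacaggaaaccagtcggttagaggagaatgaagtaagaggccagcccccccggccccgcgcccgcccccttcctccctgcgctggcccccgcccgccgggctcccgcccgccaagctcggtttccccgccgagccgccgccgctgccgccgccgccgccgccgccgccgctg

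Single matches from 4 other genes are shown with 10 bases on either side, so that the element can be compared between genes of different roles. ICAM1 and CD40 are a target and a receptor, and NFKBIA and TNFAIP3 are inhibitors. Their places are chr2:69096922-69096951 (ICAM1, plus strand), chr17:48285930-48285959 (CD40, plus strand), chr7:64507916-64507945 (NFKBIA, plus strand) and chr1:26489945-26489974 (TNFAIP3, minus strand).
ICAM1: tacttcagttGGGAAATTCCggtgcttgag
CD40: aatgtcctagGGGAAATCCCggggaggggc
NFKBIA: tgactggcttGGAAATTCCCcgagcttgac
TNFAIP3: gactcacgcgGGGACACCCCggggcggggc

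The genes spanned a wide range of levels. CD14, the co-receptor that hands lipopolysaccharide to TLR4, was the highest at a mean of 254 FPKM over the 9 libraries, and TRAF5 the lowest. Between them lay RELA at 34.1, LTBR at 27.4 and TNFRSF1A at 24.7 FPKM, while TRAF1, TRAF3 and TNF were under 1 FPKM at 0.6004, 0.671 and 0.977. The median of the 36 tested genes was 6.19 FPKM, against 4.86 FPKM over all genes tested. The median within-group SD was 0.303 on the log2(FPKM + 0.1) scale, against 0.338 over all genes tested. The depth behind a single FPKM value is unknown, so the low values of BCL2, TRAF1, TRAF3 and TNF carry an error that only the spread between libraries shows.

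**Figure D1:**
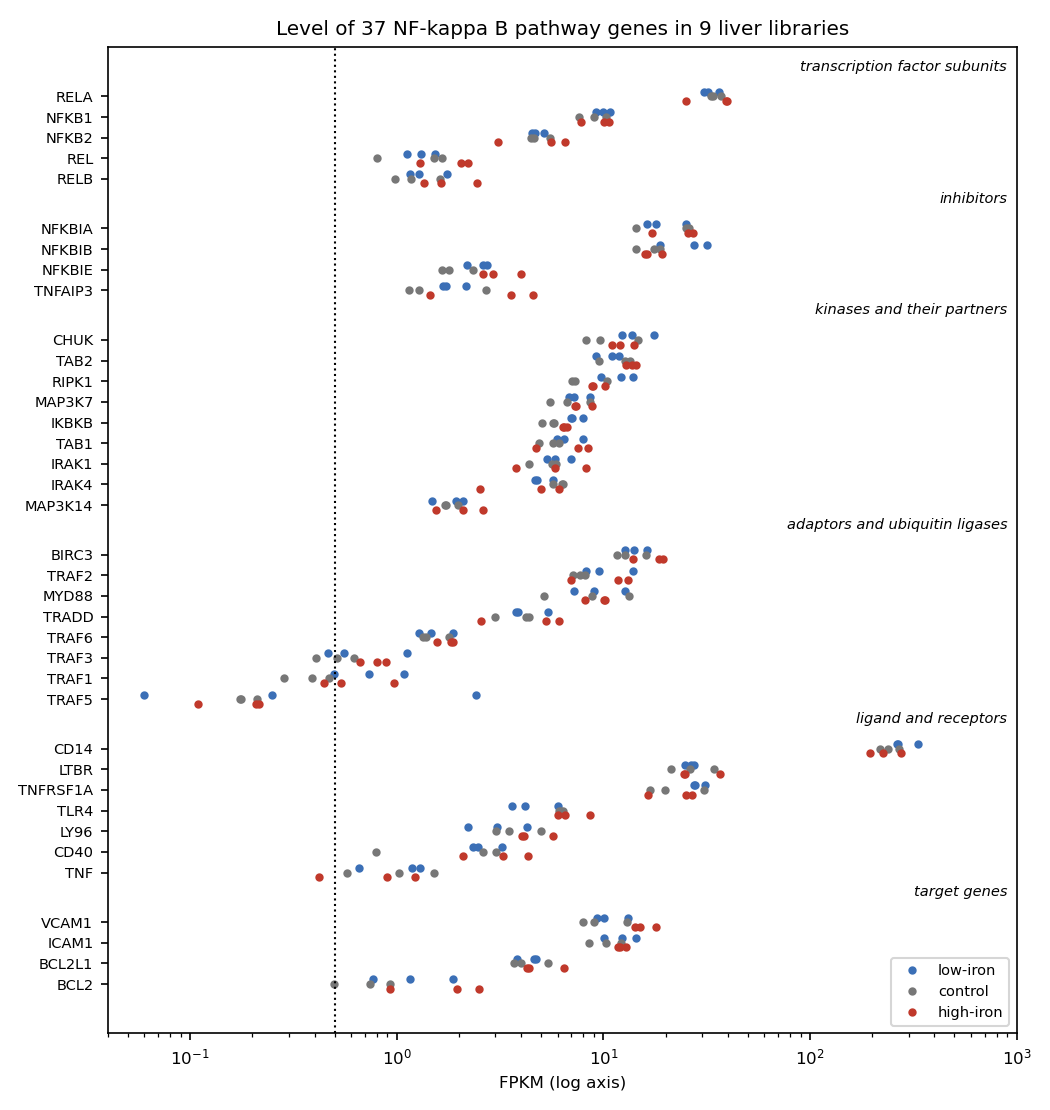
FPKM (log axis) of 37 genes in each of the 9 libraries, in 6 roles and sorted by mean within a role; points are libraries, coloured by diet group, and the dotted line is the 0.5 FPKM filter. CD14 stands at the top with a mean of 254 FPKM, and the 3 colours overlap for most genes.

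Diet groups were compared with limma on log2(FPKM + 0.1) in a single fit of the 9 libraries. A gene was called when its fold change was at least 2 at an unadjusted p under 0.05, the thresholds of the study, and p-values were also adjusted over the 12584 genes. The 3 piglets of a group were separate animals. The exact permutation test of 3 against 3 libraries has 20 splits and cannot give a p below 0.1. In bulk liver RNA, fewer cells of a type and less RNA per cell cannot be told apart.

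Few of the 36 tested genes differed between diets, and none passed an adjusted p under 0.05. Between low-iron and control 0 of 36 were called, while 0.882% of all genes tested were called. Between high-iron and control 1 of 36 was called, BCL2 (2.78%), against a background of 1.57%, and between high-iron and low-iron 0 of 36, against 1.54%. The study had already named BCL2 as differentially expressed in these libraries, and the list was labelled with it. Its call here is therefore no independent result, and the 2.78% cannot be weighed against the background. The smallest adjusted p among the 36 genes (limma) was 1.00 for low-iron against control, 0.885 for high-iron against control and 0.640 for high-iron against low-iron. Over all genes tested 0, 1 and 0 had an adjusted p under 0.05 in these comparisons.

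Without the limit on fold change, 3 of 36 genes (8.33%) had an unadjusted p under 0.05 in each comparison. For low-iron against control these were NFKBIB, IKBKB and RIPK1, all higher in the low-iron group, with a background of 3.68%. For high-iron against control they were NFKBIE, BCL2 and VCAM1, all higher in the high-iron group, with a background of 5.59%. BCL2 had already been named by the study from these libraries, so this count cannot be weighed against its background. For high-iron against low-iron they were VCAM1 and TLR4, higher in the high-iron group, and NFKBIB, lower in it, with a background of 7.15%.

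No overlap between low-iron and control libraries was seen for 5 of 36 genes (13.9%), where 8.34% of all genes tested did not overlap. IKBKB, TRAF1 and TRAF2 were higher and IRAK4 and TLR4 lower in the low-iron libraries. Between high-iron and control there were 4 such genes, NFKBIE, IKBKB, TRAF3 and VCAM1, all higher in the high-iron libraries, against 10.9%. Between high-iron and low-iron there were again 4, with TAB2 and VCAM1 higher and IKBKB and TNFRSF1A lower in the high-iron libraries, against 13.2%.

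Over the 3 groups together, the limma F test gave an unadjusted p under 0.05 for NFKBIB, NFKBIE, TLR4 and VCAM1, 4 of 36 genes, against 5.55% of all genes tested. The exact permutation test of F, over all assignments of the libraries to the groups, gave a p under 0.05 for NFKBIE, IKBKB and TLR4, 3 of 36 (8.33%), against 5.37%. IKBKB had the smallest p this test can give, which 0.509% of all genes tested reached.

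By count, more of the genes were higher than lower in each diet against control, as was also true of all genes tested. In the high-iron group 31 of 36 were higher than in control, with a median log2 difference of 0.20, and 8179 of the 12584 genes tested were also higher, with a median of 0.098. In the low-iron group 28 of 36 were higher than in control (median 0.15), beside 7887 of 12584 (median 0.076). Both comparisons use the same 3 control libraries. BCL2, which the study had already named from these libraries, is counted among the higher genes in both. Between high-iron and low-iron 23 of 36 were higher (median 0.047), beside 6751 of 12584 (median 0.031). The median deviation of these genes in a library had an SD of 0.139 between replicates.

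The split into higher and lower depends on the scaling. Under median-of-ratios scaling the median of all genes between high-iron and control moved from 0.098 to -0.027, and 25 of 36 genes were higher in high-iron, while the median of the 36 genes stood 0.101 above that of all genes, beside 0.103 as deposited. Under quantile normalization 26 of 36 were higher, with a distance of 0.095. Without control 5 the count was 25 of 36.

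The low-iron count was less stable. With array quality weights 19 of 36 genes (52.8%) were higher in low-iron than in control, beside 54.6% of all genes tested, and the median was 0.076. Under median-of-ratios scaling the count was 23 (median 0.075) and under quantile normalization 22 (0.066). Without control 5 it was 20 of 36 (55.6%, beside 54.2% of all genes tested) with a median of 0.067, without low-iron 3 it was 23 (0.082) and without control 4 it was 30 (0.25). Between high-iron and low-iron the count was 15 of 36 without high-iron 8 (median -0.030), 17 without low-iron 2 (-0.016) and 27 without high-iron 2 (0.20), and the median was 0.14 without low-iron 3, 0.16 with array quality weights, 0.080 after rescaling to TPM and -0.00031 under median-of-ratios scaling.

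**Figure D2:**
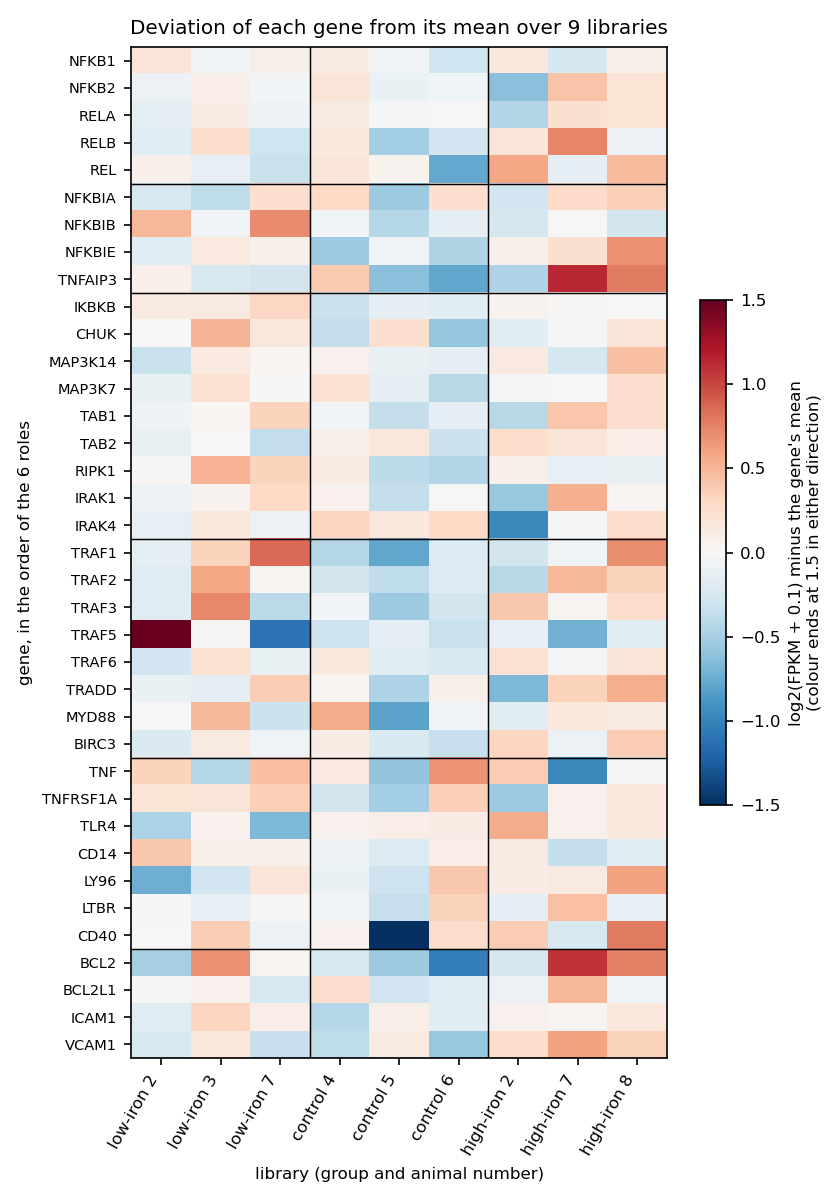
Deviation of 37 genes (rows, in 6 roles) from their own mean over the 9 libraries (columns), as log2(FPKM + 0.1), with red above and blue below the mean. Control 5 and control 6 were each the lowest library for 9 of the 36 tested genes, and high-iron 7 and high-iron 8 the highest for 10 and 8.

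Single libraries stood apart within their groups, also over all genes tested. Control 5 was the lowest library for 9 of the 36 genes (25.0%) and the highest for 0, while over all genes tested it was the lowest for 22.6%. Control 6 was the lowest for 9 as well (16.2% over all genes tested). High-iron 7 was the highest library for 10 of 36 genes (27.8%, and 16.1% over all genes tested) and high-iron 8 for 8 of 36 (22.2%, and 15.7%). High-iron 2, unlike the other high-iron libraries, was often the lowest, for 8 of 36 genes (22.2%, and 18.1% over all genes tested). High-iron 2 and control 5 also had the fewest genes above 0 FPKM, 16235 and 16255, while high-iron 7 had the most, 17817.

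The 5 transcription factor subunits did not separate by diet. RELA, the subunit p65 with a strong activation domain, had 30.6, 36.4 and 32.2 FPKM in the low-iron libraries, 36.99, 33.02 and 33.8 in control and 25.0, 39.8 and 39.1 in high-iron. The high-iron group held both the lowest and the highest RELA value, and the groups overlapped. NFKB1, the precursor of p50, ranged from 7.603 to 10.8 FPKM and NFKB2, the precursor of p52, from 3.09 to 6.53. REL and RELB were low, with means of 1.499 and 1.491 FPKM, and had the widest differences of the role between high-iron and control, 0.48 ± 0.33 and 0.49 ± 0.31 (log2, SE).

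Of the 4 inhibitors, 2 had an unadjusted p under 0.05 in some comparison. NFKBIA, the main inhibitor of the RELA dimer and itself a target of the pathway, was the highest of them at a mean of 21.7 FPKM. It had 17.9, 16.2 and 25.2 FPKM in low-iron, 26.1, 14.4 and 25.1 in control and 17.2, 25.8 and 27.1 in high-iron. High and low libraries occurred in every diet group, and its log2 differences were -0.12, 0.12 and 0.24 for low-iron against control, high-iron against control and high-iron against low-iron.

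NFKBIB (chr6:47703644-47712661), a second inhibitor of RELA dimers, had 27.3, 18.8 and 31.7 FPKM in low-iron, 18.8, 14.3 and 17.5 in control and 16.3, 19.3 and 15.9 in high-iron. Low-iron 2 and low-iron 7 stood above all other libraries, while low-iron 3 lay within the range of the other groups. Over the 3 groups the exact permutation p was 0.107. The log2 difference was 0.59 ± 0.22 for low-iron against control (unadjusted p = 0.0210 and adjusted p = 1.00 with limma, exact permutation p = 0.2, two-sided) and -0.56 ± 0.22 for high-iron against low-iron (unadjusted p = 0.0260 and adjusted p = 0.656 with limma, exact permutation p = 0.2). Without low-iron 7 these differences were 0.43 and -0.40, with unadjusted limma p-values of 0.0913 and 0.110. The unadjusted p of the first was also above 0.05 without low-iron 2 (0.54) or control 5 (0.48), and that of the second without low-iron 2 (-0.51), high-iron 2 (-0.53) or high-iron 8 (-0.51).

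NFKBIE (chr7:39255078-39266085), the inhibitor known for holding REL and RELA dimers, had 2.18, 2.74 and 2.61 FPKM in low-iron, 1.66, 2.35 and 1.78 in control and 2.604, 2.94 and 4.01 in high-iron. Control lay below high-iron in all its libraries, and low-iron lay between them with overlap on both sides. The difference between high-iron and control was 0.69 ± 0.24 on the log2 scale (unadjusted p = 0.0165 and adjusted p = 0.885 with limma, exact permutation p = 0.1, the smallest possible). The exact permutation p over the 3 groups was 0.0357. Without high-iron 8 the difference was 0.51, and without control 4 it was 0.59, with unadjusted limma p-values of 0.0787 and 0.0557.

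TNFAIP3 encodes A20, the ubiquitin-editing enzyme that shuts the pathway off and is a classical target of it. It had 2.15, 1.73 and 1.67 FPKM in low-iron, 2.72, 1.28 and 1.14 in control and 1.45, 4.58 and 3.56 in high-iron. High-iron 7 and high-iron 8 were above all other libraries, but high-iron 2 lay between the control libraries. Its difference between high-iron and control, 0.82 ± 0.43 (log2), did not pass the thresholds (adjusted p = 0.916 with limma). It was called without control 4 (1.19) and without high-iron 2 (1.29), and without high-iron 2 also against low-iron (1.09).

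Among the 9 kinases and their partners, IKBKB had no overlap between any of the 3 groups. IKBKB (chr17:11289607-11348557), the IKK subunit that phosphorylates the inhibitors, had 6.98, 7.02 and 7.94 FPKM in low-iron, 5.06, 5.74 and 5.67 in control and 6.63, 6.44 and 6.36 in high-iron. Every low-iron library was above every high-iron library, and every high-iron library above every control library. This order did not follow the added iron. The steps were small, with group means of 7.32 ± 0.543, 5.49 ± 0.375 and 6.48 ± 0.138 FPKM (SD, n = 3), and the within-group SD of 0.0843 (log2) was the lowest of the 36 genes.

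The IKBKB difference was 0.41 ± 0.16 (log2, SE) for low-iron against control, 0.24 ± 0.16 for high-iron against control and -0.17 ± 0.16 for high-iron against low-iron. Each pair gave the smallest exact permutation p of 0.1, and the exact permutation p over the 3 groups was 0.00357, the smallest possible. Limma draws the variance of a gene towards that of others of like level. Its unadjusted p was 0.0299 for low-iron against control, 0.175 for high-iron against control and 0.316 for high-iron against low-iron. The adjusted limma p-values were 0.9998, 0.932 and 0.875 in the same order, and the limma F test over the 3 groups gave 0.0834. Under median-of-ratios scaling and under quantile normalization the difference between low-iron and control was 0.33. Without low-iron 7 or without control 4 it was 0.35, each of these with an unadjusted p above the 0.05 threshold.

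The partner kinase CHUK, the IKK alpha subunit, was the highest gene of the role at 12.6 FPKM. It had 12.3, 17.6 and 13.8 FPKM in low-iron, 9.62, 14.7 and 8.21 in control and 10.98, 12.03 and 14.0 in high-iron. Control 4 and control 6 were the lowest libraries, and control 5 was above all but the highest low-iron library. The log2 difference between low-iron and control was 0.45 ± 0.24 (adjusted p = 1.00 with limma).

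RIPK1, a kinase and scaffold at the TNF receptor, had 9.76, 13.9 and 12.2 FPKM in low-iron, 10.4, 7.30 and 7.07 in control and 10.1, 8.80 and 8.88 in high-iron. Low-iron 3 and low-iron 7 were the 2 highest libraries, and low-iron 2 was below control 4. The difference between low-iron and control was 0.53 ± 0.21 (log2, unadjusted p = 0.0270 and adjusted p = 1.00 with limma, exact permutation p = 0.2). It was 0.42 without low-iron 3, 0.51 without low-iron 7, 0.46 without control 5 and 0.44 without control 6, 0.43 under quantile normalization and 0.36 with array quality weights, each time with an unadjusted limma p above the 0.05 threshold.

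The other kinases and partners gave no unadjusted p under 0.05. IRAK4, the kinase next to MYD88, was lower in all low-iron libraries (4.65 to 5.67 FPKM) than in control (5.68 to 6.37), and high-iron ranged from 2.54 to 6.08. TAB2, an adaptor of the kinase MAP3K7, was higher in all high-iron libraries (12.9 to 14.5 FPKM) than in low-iron (9.24 to 11.96). MAP3K7, TAB1, IRAK1 and MAP3K14 overlapped between all groups, at means of 7.44, 6.41, 5.76 and 1.91 FPKM.

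The 7 tested adaptors and ubiquitin ligases were higher on average in both the low-iron and the high-iron group than in control, 7 of 7 in each, and none had an unadjusted p under 0.05. Of all genes tested, 62.7% and 65.0% were also higher in these comparisons, which share the same control libraries. BIRC3, a ubiquitin ligase of TNF receptor complexes and a known target, was the highest at 15.0 FPKM. It had 12.7, 16.3 and 14.1 FPKM in low-iron, 16.0, 12.7 and 11.6 in control and 18.6, 13.9 and 19.4 in high-iron. High-iron 2 and high-iron 8 were above all other libraries, and high-iron 7 lay within the control range. The difference between high-iron and control was 0.36 ± 0.20 (log2, adjusted p = 0.932 with limma).

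TRAF1, which is known to be induced by the pathway, was at 0.499 to 1.09 FPKM in low-iron and 0.283 to 0.470 in control, with no overlap and a log2 difference of 0.82 ± 0.45. TRAF2, which recruits BIRC3, was at 8.20 to 13.9 FPKM in low-iron and 7.14 to 8.12 in control, also with no overlap (0.42 ± 0.27). TRAF3, which holds down the kinase MAP3K14, was at 0.666 to 0.886 FPKM in high-iron and 0.408 to 0.624 in control, again with no overlap (0.53 ± 0.41). These differences were below 2 times their SE. TRADD, MYD88 and TRAF6 overlapped between all groups.

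TRAF5 was the most uneven gene. Low-iron 2 had 2.42 FPKM, while the 8 other libraries lay between 0.0595 and 0.248, so that its highest value was 40.7 times its lowest. The group mean of low-iron, 0.911 ± 1.31 FPKM (SD, n = 3), therefore rests on that library.

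The ligand TNF, made mainly by macrophages and lymphocytes, was low in all groups. Its means were 1.04 ± 0.341, 1.04 ± 0.473 and 0.847 ± 0.402 FPKM in low-iron, control and high-iron (SD, n = 3). CD14 had 334, 266 and 265 FPKM in low-iron, 238, 219 and 270 in control and 277, 196 and 225 in high-iron. Low-iron 2 was the highest library and high-iron 7 the lowest, and the groups overlapped, with a log2 difference of 0.25 ± 0.20 for low-iron against control (adjusted p = 1.00 with limma).

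TLR4 (chr1:258044610-258054641), the lipopolysaccharide receptor, had 4.16, 6.06 and 3.61 FPKM in low-iron, 6.07, 6.24 and 6.34 in control and 8.62, 6.06 and 6.51 in high-iron. All low-iron libraries were below all control libraries, though low-iron 3 by a narrow margin, and high-iron 7 lay level with low-iron 3. The log2 difference was -0.46 ± 0.23 for low-iron against control and 0.62 ± 0.23 for high-iron against low-iron (unadjusted p = 0.0195 and adjusted p = 0.640 with limma, exact permutation p = 0.2). The exact permutation p over the 3 groups was 0.0464. The difference between high-iron and low-iron was 0.57 without low-iron 2, 0.47 without low-iron 7 and 0.47 without high-iron 2, with unadjusted limma p-values of 0.0586, 0.0827 and 0.0790.

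LY96, the partner protein of TLR4, ranged from 2.22 to 5.73 FPKM with a log2 difference of 0.56 ± 0.28 between high-iron and low-iron. TNFRSF1A, the main TNF receptor, was lower in all high-iron libraries (16.5 to 26.9 FPKM) than in low-iron (27.5 to 30.9), while control spanned 16.9 to 30.8. LTBR, the lymphotoxin receptor, and CD40, a receptor of antigen-presenting cells, overlapped between all groups. CD40 was at 0.797 FPKM in control 5 and between 2.08 and 4.32 FPKM elsewhere.

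Of the 4 target genes, BCL2 and VCAM1 had an unadjusted limma p under 0.05 for high-iron against control. All 4, among them BCL2, already named by the study from these libraries, had a log2 difference above 0 in each comparison. So did 62.7%, 65.0% and 53.6% of all genes tested for low-iron against control, high-iron against control and high-iron against low-iron. BCL2L1 in the first (0.024 ± 0.23) and ICAM1 in the last (0.011 ± 0.20) lay below the medians of all genes tested, 0.076 and 0.031. BCL2 (chr1:158337403-158518214), which keeps mitochondria from releasing the signals of apoptosis, had 0.768, 1.87 and 1.16 FPKM in low-iron, 0.932, 0.738 and 0.498 in control and 0.930, 2.49 and 1.96 in high-iron. High-iron 7 and high-iron 8 were the 2 highest libraries, while high-iron 2 was level with control 4, so that the groups overlapped. The group means were 1.26 ± 0.556, 0.723 ± 0.218 and 1.796 ± 0.795 FPKM (SD, n = 3), and the exact permutation p over the 3 groups was 0.107.

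BCL2 was 2.20-fold higher in high-iron than in control, a log2 difference of 1.14 ± 0.43 (unadjusted p = 0.0246 and adjusted p = 0.892 with limma, exact permutation p = 0.2). For low-iron against control the log2 difference was 0.69 ± 0.43 and for high-iron against low-iron 0.45 ± 0.43. The call between high-iron and control was lost without control 6 (0.93), without high-iron 7 (0.86) or without high-iron 8 (1.03, with an unadjusted p above the threshold). It was also lost with a pseudocount of 1 (0.66) and under quantile normalization (0.93), where the fold change came under 2.

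VCAM1 (chr4:117496914-117511211), an adhesion molecule by which endothelium holds leukocytes, had 10.1, 13.2 and 9.28 FPKM in low-iron, 9.01, 13.01 and 7.95 in control and 14.3, 17.9 and 15.1 in high-iron. All 3 high-iron libraries were above the 6 others, and low-iron and control overlapped. Over the 3 groups the exact permutation p was 0.0786. The log2 difference was 0.68 ± 0.22 for high-iron against control (unadjusted p = 0.0125 and adjusted p = 0.885 with limma) and 0.54 ± 0.22 for high-iron against low-iron (unadjusted p = 0.0347 and adjusted p = 0.677 with limma), each with the smallest exact permutation p of 0.1. Without control 6 the first of these was 0.53, with an unadjusted p just above the threshold. The second lay between 0.44 and 0.69 with any library left out, with an unadjusted limma p above 0.05 without low-iron 2, low-iron 7, high-iron 7 or high-iron 8, where the differences were 0.50, 0.44, 0.45 and 0.57.

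ICAM1, the other main adhesion molecule of endothelium among these genes, overlapped between all groups. It ranged from 10.1 to 14.4 FPKM in low-iron, 8.50 to 12.2 in control and 11.8 to 12.8 in high-iron, with log2 differences from control of 0.24 ± 0.20 and 0.25 ± 0.20. BCL2L1, the survival gene next to BCL2 in function, ranged from 3.68 to 6.43 FPKM and overlapped between all groups.

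**Figure D3:**
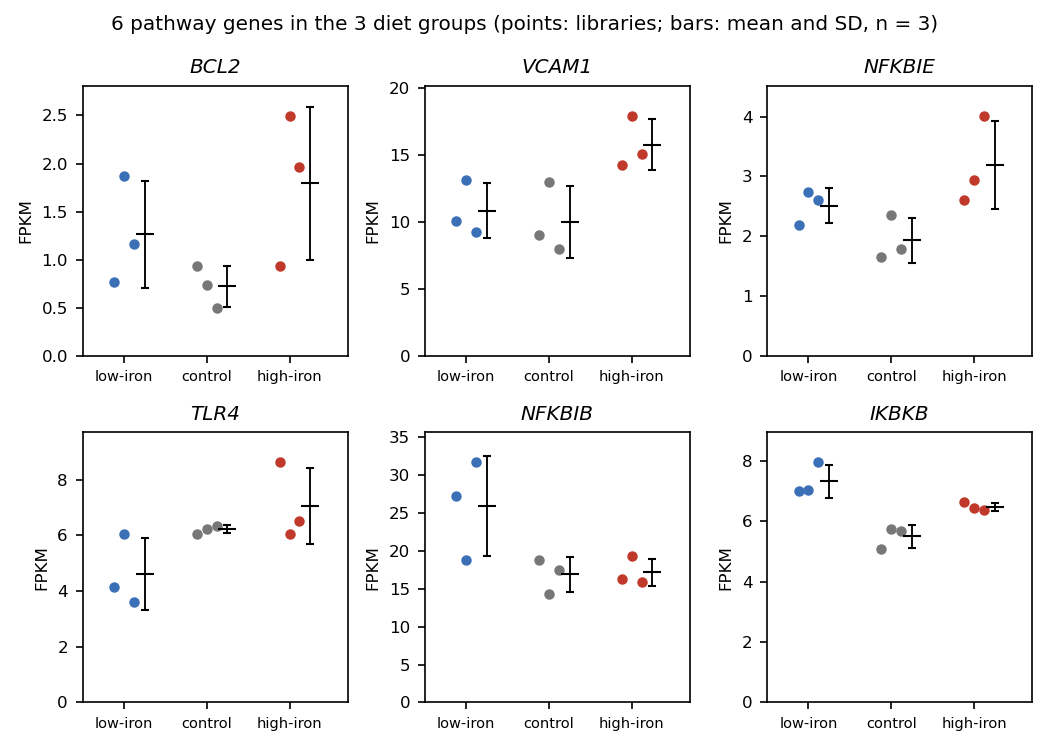
FPKM of 6 genes in the 9 libraries, with points for libraries by diet group and bars for the mean and SD of 3. IKBKB shows 3 groups without overlap, VCAM1 stands at 14.3 to 17.9 FPKM in all high-iron libraries, and BCL2 overlaps between high-iron and control through high-iron 2.

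**Figure D4:**
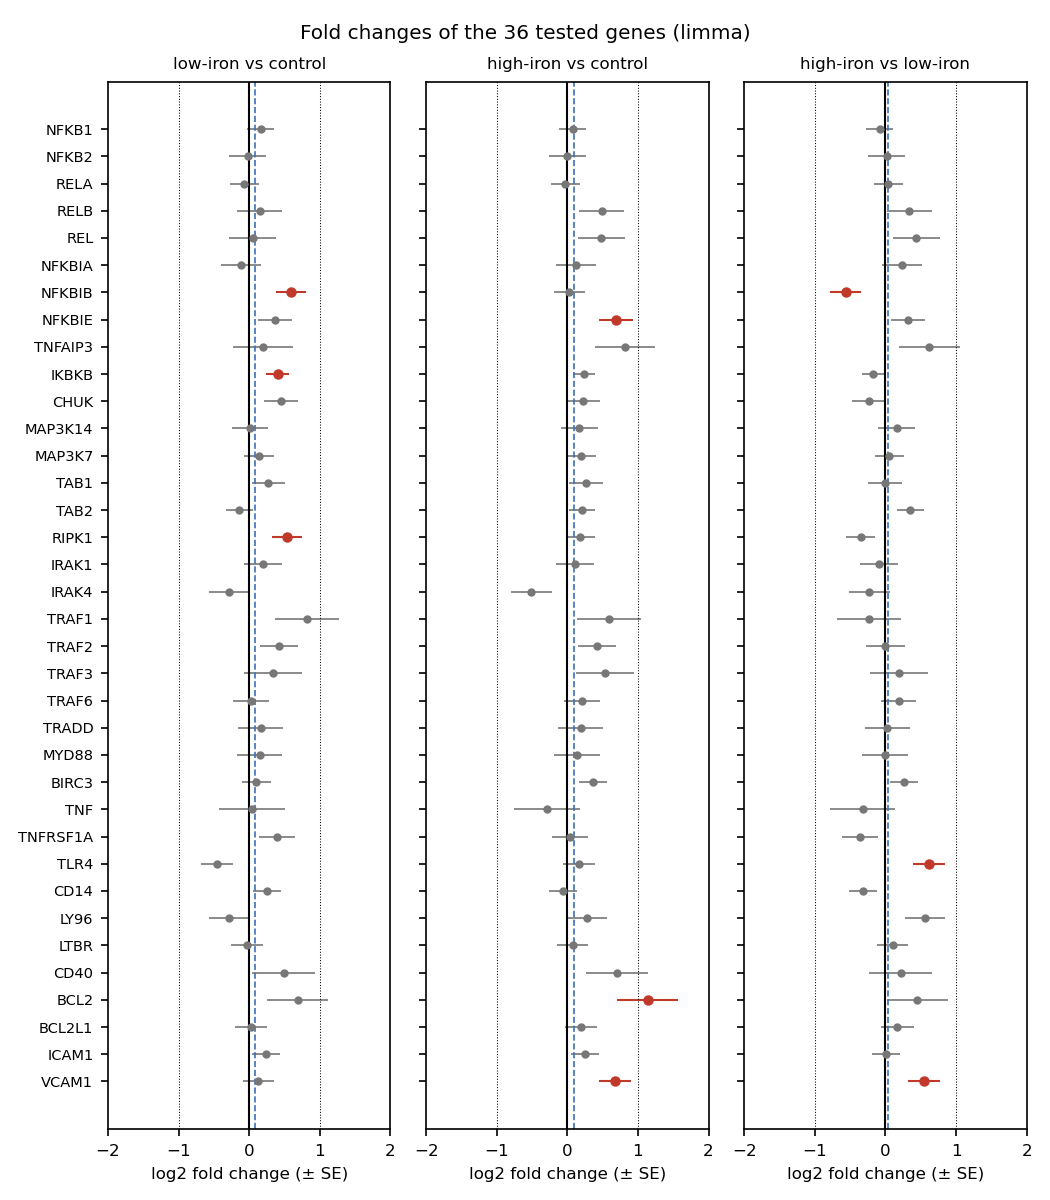
Log2 fold change with its SE (limma) of the 36 tested genes in the 3 comparisons, with red for an unadjusted p under 0.05, a dashed line at the median of all genes tested and dotted lines at a fold change of 2. BCL2 at 1.14 is the only point beyond a dotted line, and most intervals cover the dashed line.

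Markers of other liver cells moved with the high-iron group. Of all genes tested, 65.0% were higher in high-iron than in control and 5.59% had an unadjusted p under 0.05, and the marker counts are to be read beside these shares. The summed level of 14 T and NK cell marker rows (13 symbols) was 47.7 to 75.6 FPKM in high-iron, 33.8 to 44.6 in control and 31.7 to 37.6 in low-iron, and 14 of 14 were higher in high-iron than in control, 3 of them with an unadjusted p under 0.05. The sum of 13 macrophage markers was 1181 to 1412, 888 to 1144 and 992 to 1162 FPKM in the same order, with 12 of 13 higher and 7 at an unadjusted p under 0.05. The sum of 11 endothelial markers was 311 to 368, 253 to 292 and 263 to 340 FPKM, with 10 of 11 higher and 6 at an unadjusted p under 0.05. None of these markers was at 0 in all libraries. Of the stellate cell and fibroblast markers 8 of 9 were higher (median log2 difference 0.57), with 1 called and 2 at an unadjusted p under 0.05, though their sums overlapped, at 205 to 311, 119 to 213 and 120 to 314 FPKM. The part of these cell types in the values of VCAM1, NFKBIE, TLR4 and BCL2 was not tested.

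Hepatocyte markers were not level throughout. Of 9 marker rows (8 symbols) 3 were higher in high-iron than in control, 1 was called lower and 2 had an unadjusted p under 0.05, both lower. ARG1 (arginase) was at 279 to 454 FPKM in high-iron, 566 to 890 in control and 599 to 799 in low-iron, with no overlap between high-iron and either other group and log2 differences of -1.13 ± 0.26 from control (adjusted p = 0.885 with limma) and -1.08 ± 0.26 from low-iron. CPS1, the first enzyme of the urea cycle, was at 331 to 513 FPKM in high-iron and 722 to 843 in control, with no overlap, and at 493 to 792 in low-iron (-0.88 ± 0.24 for high-iron against control, adjusted p = 0.885 with limma). Both genes were named after their values were seen, and their part in the high-iron values of the pathway genes was not tested.

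The sums of the other marker lists overlapped between high-iron and control. The sum of 8 B cell markers found was 5.55 to 11.3 FPKM in high-iron, 4.33 to 8.32 in control and 4.82 to 6.25 in low-iron, with 4 of 5 tested markers higher in high-iron than in control and 1 called. Plasma cell markers summed to 33.9 to 45.9, 33.9 to 35.8 and 21.8 to 39.1 FPKM in the same order, with 3 of 6 higher in high-iron than in control. Bile duct markers summed to 27.4 to 42.3, 11.4 to 32.2 and 13.2 to 35.2 FPKM, with 4 of 5 higher in high-iron than in control (median log2 difference 0.56) and 0 at an unadjusted p under 0.05. Neutrophil markers summed to 5.78 to 12.97 FPKM in high-iron, 4.48 to 6.35 in control and 7.61 to 9.996 in low-iron, so that low-iron lay above control without overlap, with 4 of 5 tested markers higher in low-iron than in control, 5 of 5 higher in high-iron than in control, and in low-iron 1 at an unadjusted p under 0.05. Of the endothelial markers 8 of 11 were higher in low-iron than in control, with 2 at an unadjusted p under 0.05. Of the macrophage markers 10 of 13 were higher, with 0 at such a p. Over all genes tested, 62.7% were higher and 3.68% had such a p. The sums of both lists overlapped between low-iron and control. The part of any of these cell types in the low-iron values of IKBKB, NFKBIB and RIPK1 was not tested.

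The wider pathway was read from 5 further lists, and 6 of their genes were called. Over all genes tested, 0.882%, 1.57% and 1.54% were called and 3.68%, 5.59% and 7.15% had an unadjusted p under 0.05 for low-iron against control, high-iron against control and high-iron against low-iron. Of 31 tested further regulators, such as IKBKG, TNIP1 and CYLD, 0 were called in any comparison, with 1, 0 and 2 at an unadjusted p under 0.05 in the same order. Of 18 further ligands and receptors, 1 was called between high-iron and control and 1 between high-iron and low-iron. Of 12 genes of the antigen receptor branch 1 was called, between high-iron and control. Of 16 further target genes 1 was called between low-iron and control and 1 between high-iron and control, and of 14 further BCL2 family genes 1 was called in each comparison. For high-iron against control, the genes at an unadjusted p under 0.05 numbered 3 of 18, 1 of 12, 1 of 16 and 3 of 14 in these 4 lists, all of them higher in high-iron. For low-iron against control they numbered 0, 0, 2 (both higher) and 1 (lower), in the same order. For high-iron against low-iron they numbered 2, 2, 1 and 1, of which the target gene was lower and the others higher in high-iron.

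TNFSF13B encodes BAFF, the survival factor of B cells. It had 1.22, 1.12 and 1.20 FPKM in low-iron, 1.13, 0.846 and 0.447 in control and 1.89, 1.29 and 2.27 in high-iron. All high-iron libraries were above all others, with a log2 difference from control of 1.12 ± 0.36 (unadjusted p = 0.00961 and adjusted p = 0.885 with limma). The call was lost without control 6 (0.80) and without high-iron 8 (0.95), with a pseudocount of 1 (0.64) and under quantile normalization (0.92), where the fold change came under 2.

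TNFRSF11A encodes RANK, a receptor of osteoclast precursors and other myeloid cells. It had 0.631, 1.15 and 0.995 FPKM in low-iron, 1.26, 1.01 and 0.956 in control and 2.30, 1.69 and 1.92 in high-iron. All high-iron libraries were above all others, with a log2 difference of 1.04 ± 0.30 from low-iron (adjusted p = 0.612 with limma) and 0.81 ± 0.30 from control. The call against low-iron was lost without low-iron 2 (0.81) and without high-iron 2 (0.93), and also with a pseudocount of 1 (0.63), under median-of-ratios scaling (0.99) and under quantile normalization (0.91).

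MALT1, the protease that links antigen receptors to IKK, had 0.678, 0.751 and 0.629 FPKM in low-iron, 0.898, 0.300 and 0.443 in control and 1.14, 1.22 and 1.20 in high-iron. Again the high-iron libraries were above all others, with a log2 difference from control of 1.10 ± 0.39 (adjusted p = 0.888 with limma). The call was lost without control 5 (0.80), with a pseudocount of 1 (0.52), under median-of-ratios scaling (0.99), under quantile normalization (0.85) and with array quality weights (0.85).

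Among the chemokine targets, CCL4 had 11.4, 5.43 and 10.7 FPKM in low-iron, 4.99, 1.39 and 4.21 in control and 7.20, 5.41 and 5.43 in high-iron. All low-iron libraries were above all control libraries, with a log2 difference of 1.47 ± 0.44 (adjusted p = 1.00 with limma), which was 0.92 without control 5, where the call was lost. All high-iron libraries were also above all control libraries for CCL4. That log2 difference was 0.92 ± 0.44 and was not called (unadjusted p = 0.0602 with limma). It was called in 2 of the 9 fits with a library left out. CCL19, which guides T cells and dendritic cells, had 46.6 FPKM in high-iron 8 and 7.61 to 17.2 FPKM in the 8 other libraries. Its log2 difference between high-iron and control was 1.08 ± 0.43, and the call was lost without high-iron 8 (0.56), without control 5 (0.92) and under median-of-ratios scaling (0.95).

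BCL2L14, a member of the BCL2 family, was the gene of these lists with the widest separation. It had 0.214, 0.133 and 0.311 FPKM in low-iron, 0.442, 0.503 and 0.690 in control and 1.20, 1.20 and 1.13 in high-iron. The 3 groups did not overlap and followed the order of added iron. All low-iron libraries and control 4 lay below 0.5 FPKM, and the gene passed the filter on its mean through its high-iron values. It was not tested at a mean FPKM of at least 1, while without a filter it was called in all 3 comparisons. The log2 difference was -1.03 ± 0.41 for low-iron against control, 1.00 ± 0.41 for high-iron against control and 2.04 ± 0.41 for high-iron against low-iron (unadjusted p = 0.000478 and adjusted p = 0.467 with limma). The call between high-iron and low-iron held with any library left out (1.83 to 2.24). The call between low-iron and control was lost without low-iron 2 (-1.04), low-iron 3 (-0.83) or control 6 (-0.88), and the call between high-iron and control without control 4 (0.89), control 5 (0.96), high-iron 2 (0.99), high-iron 7 (0.99) or high-iron 8 (1.03). These levels are low, and with a pseudocount of 1 the differences were -0.34, 0.50 and 0.84 in the order above and all 3 calls were lost. The call between low-iron and control was also lost in a fit of only those groups (-1.03) and with array quality weights (-0.92). The call between high-iron and control was also lost with a pseudocount of 0.01 (1.12), under median-of-ratios scaling (0.89), under quantile normalization (0.80) and with a replicate block (0.97).

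**Figure D5:**
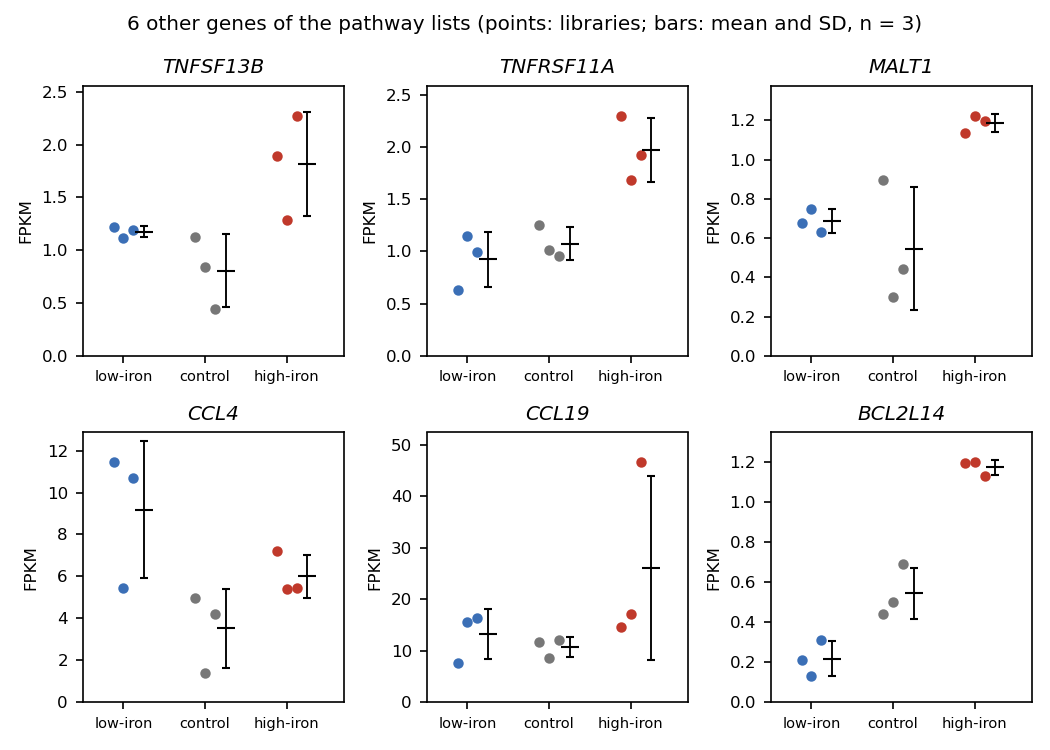
FPKM of the 6 called genes of the wider pathway lists in the 9 libraries, with points for libraries by diet group and bars for the mean and SD of 3. BCL2L14 rises from 0.133 to 0.311 FPKM in low-iron over 0.442 to 0.690 in control to 1.13 to 1.20 in high-iron, and the CCL19 mean of high-iron rests on 1 library at 46.6 FPKM.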

How the data were processed

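Poly(A)-selected liver RNA of 9 pigs was sequenced, 3 libraries per group, with groups taken from the library names and the design text. Per the labels and the methods of the study, HISAT2 (aligner), StringTie (assembler) and the Sscrofa11.1 genome were used. The authors deposited FPKM values. How these were scaled between libraries is not given in the sources used here. Differential expression in the study used DESeq2 on counts, which were not used here, so limma replaced it. Gene numbers in the table were read as serial numbers, counted from 0, of the gene and pseudogene lines of NCBI annotation release 106: all 20660 fell on protein-coding genes, against 15031 with the numbering shifted by 1.

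R 4.3.3 and limma 3.58.1 were used on log2(FPKM + 0.1), for genes whose mean FPKM reached 0.5, with a trend in the empirical Bayes step, 6 residual degrees of freedom and Benjamini-Hochberg adjustment. Fold changes on this scale understate those of low genes. The fit was tested on simulated data. Exact permutation tests were two-sided, in Python 3.11.15 with numpy 2.4.6 and pandas 2.3.3. Per library values are given for BCL2, members that were called or had a limma F p under 0.05, and the highest member of each role; from the other lists, for called genes, at most 4 per list and comparison. IKBKB, RIPK1, TNFAIP3 and TRAF5 were added after their values were seen, as were ranges of other members. Members, lists and tests were chosen with earlier results of these data known. Alternatives were pseudocounts of 1 and 0.01, no filter, a mean FPKM of at least 1, TPM, median-of-ratios and quantile scaling, a fit of 2 groups only, array quality weights, a replicate block and leaving out each library.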

Additional observations from a re-analysis of the deposited data

How the results depend on the processing

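No call of a difference among the 36 genes was firm. The count of genes called between high-iron and control was 1 (BCL2), and fell to 0 with a pseudocount of 1 and to 0 under quantile normalization. With each library left out in turn it ranged from 0 to 2. The count between high-iron and low-iron ranged from 0 to 1 when a library was left out, and the median log2 difference of the 36 genes from -0.030 to 0.198, with 0.198 without high-iron 2. The cause was not tested. Over 42 genes, 3 comparisons, 9 libraries left out and 10 other choices, 2332 values stayed on their side of the thresholds, 40 lost a call and 7 gained one. Only BCL2 and the called genes of the wider lists had a call to lose. Most of the 2332 values were uncalled ones that stayed uncalled, so the 40 are not to be read as a share of all values. For the 36 genes 148 values changed sign, each with no unadjusted p under 0.05. A replicate block was set on the number in the library name, which low-iron and high-iron share for 2 and 7. It gave 0, 1 and 0 called genes for low-iron against control, high-iron against control and high-iron against low-iron. The medians were 0.16, 0.21 and 0.045 in the same order, and the estimated block correlation was 0.20. The deviations of same-numbered libraries were correlated at 0.018 and 0.021, and those of the other pairs at -0.159 to 0.160. Whether same-numbered pigs shared more than a number was not tested. FPKM without counts gives no counting error, and with 3 libraries per group the exact permutation test cannot go below 0.1.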

Other observations

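BCL2, TNFRSF11A and MALT1, all higher in high-iron than in control, lie on chromosome 1 of Sscrofa11.1, in a stretch of 3.81 Mb. This was noticed after their values were seen. From BCL2 (start 158337403) to MALT1 (end 162144915) there are 19 protein-coding genes, 12 of them tested, and 9 of the 12 were higher in high-iron than in control, beside 65.0% of all genes tested. An unadjusted limma p under 0.05 was reached by 4 of the 12, BCL2, TNFRSF11A (0.81), PMAIP1 (0.86, a pro-apoptotic partner of BCL2 family proteins) and MALT1, all of them genes of the lists above, beside 5.59% of all genes tested. The 2 called genes, BCL2 and MALT1, are the ends by which the stretch was drawn. BCL2, TNFRSF11A and MALT1, through which the stretch was noticed, are counted in the 9 and in the 4. These counts therefore cannot be weighed against the shares of all genes tested. Of the genes not used to notice the stretch, only PMAIP1 had an unadjusted limma p under 0.05. The 8 other genes did not reach that threshold, with log2 differences of 0.46 for ZCCHC2, 0.31 for KIAA1468, 0.20 for PIGN, 0.20 for RNF152, 0.085 for LMAN1, -0.040 for CCBE1, -0.18 for PHLPP1 and -0.23 for SEC11C.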
